A study of Drosophila melanogaster with 8 samples.

Results

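The telomere-side ends of 4 Drosophila melanogaster chromosome arms were described for the histone mark H3K27me3 in testes of comr mutant and can mutant males. They were taken by position alone, as 1 kb windows in the first 250 kb of X, the first 500 kb of 2L and of 3L, and the last 500 kb of 3R, from 27405000 to the end (coordinates of the dm3 build). These positions held 1578 of the 114670 windows on X, 2L, 2R, 3L, 3R and 4, of which 184 lay on X, 477 on 2L, 445 on 3L and 472 on 3R. The males were homozygous for the mutation in comr (cookie monster, which encodes a protein of the meiotic arrest complex of testis) or in can (cannonball, which encodes a TBP-associated factor made in testis). They were 3 days old and came from flies kept at 23 °C, and 400 adult testes were the starting material. Germ cells of both mutants arrest as primary spermatocytes, so their testes lack spermatids, and no wild-type testes were analysed here. For each genotype 2 H3K27me3 libraries and 2 inputs had been combined by the authors into 1 profile of H3K27me3 over input. The labels name no alleles.

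H3K27me3 is laid down by the Polycomb repressive complex that holds the methyltransferase E(z), and it marks silent developmental genes in broad domains. Telomeres of Drosophila carry arrays of the retrotransposons HeT-A, TART and TAHRE in place of the short repeats that telomerase makes in most animals. Just inside these arrays lie telomere-associated sequences, repeats that can silence a gene inserted in them, and at several of which Polycomb group proteins are known to act. The windows described here are mapped sequence towards the arm ends, and the retrotransposon arrays were not analysed as such. No genes or repeats were assigned to the windows. Whether the outermost ones hold telomere-associated sequences was therefore not tested. In the RefSeq gene table of the Release 6 assembly, the outermost protein-coding genes are l(2)gl, a cell polarity gene and tumour suppressor, then Ir21a, an ionotropic receptor, and Cda5, a chitin deacetylase, on 2L. They are mthl8, of the methuselah family of receptors, CG43149 and Lsp1gamma, a larval serum storage protein, on 3L. On 3R they are Map205, a microtubule-associated protein, mod (modulo) and krz, an arrestin. That assembly differs from dm3, so these names give only the order of genes along the arm, and no score was assigned to a gene.

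The score is centred near 0, with a median of 0 over all rows, and no source used here gives its log base, so scores are compared by differences and not by folds. Each profile is a single measurement. The errors below are standard errors over windows or bins, or SDs over bins, along 1 profile. They do not measure the spread between animals or libraries, so differences carry neither a test nor a p-value. The read depth behind the scores is unknown. Windows with a score covered 73.6% of the X end, 95.4% of the 2L end, 89.0% of the 3L end and 94.4% of the 3R end. Over the rest of the same arms they covered 93.6% on X, 95.2% on 2L, 95.6% on 3L and 97.3% on 3R. No window lay in the outermost 25 kb of 3L, where rows began at 40400, or between 100 and 125 kb on X.

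Across the 4 ends H3K27me3 was on balance lower in comr than in can. In bins of 25 kb with at least 10 windows, 52 of 68 bins were lower in comr (76.5%), against 51.8% of all such bins on the 6 main sequences. The median bin difference, comr minus can, was -0.16 in the ends and 0.00 in the other 3805 bins of the 4 arms. Of the 1578 windows, 59.8% were lower in comr, against 50% of windows on the main sequences. Without the 3R end, 33 of 48 bins were still lower in comr, and without the X end 46 of 59 were. The authors' normalization gave both profiles the same distribution of scores, so a lower score in comr here must be offset elsewhere in the genome, and the total amount of the mark cannot be compared between mutants.

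**Figure D1:**
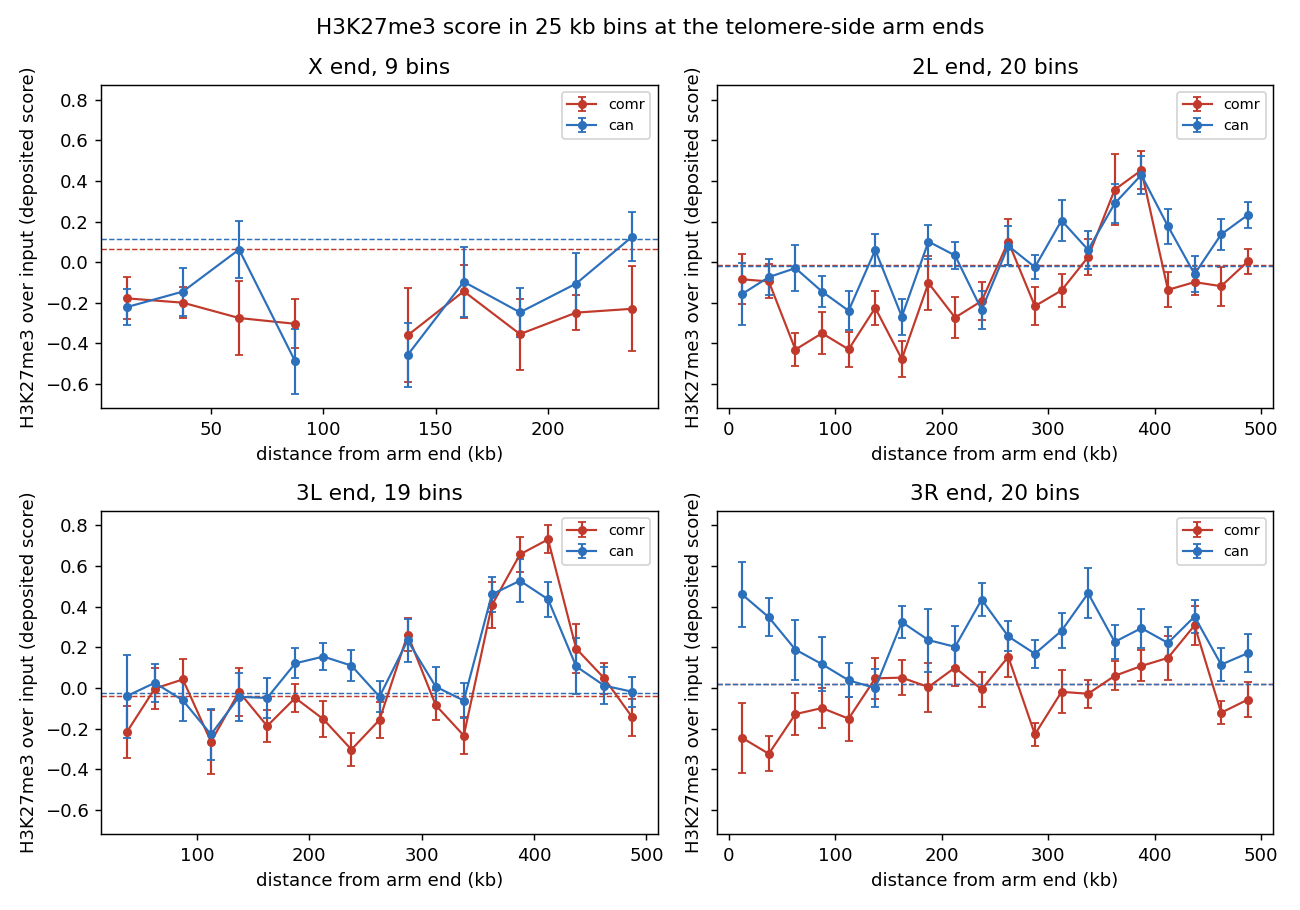
Mean H3K27me3 score of comr (red) and can (blue) in 25 kb bins against distance from the arm end in kb, with standard errors over the windows of a bin and dashed lines at the median bin of the whole arm. On 3R the comr points lie below the can points in 19 of 20 bins, while both profiles share a peak near 350 to 425 kb on 3L and 350 to 400 kb on 2L.

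The 3R end showed the largest difference between the mutants of the 4 ends. It had a mean score of -0.02 in comr and 0.24 in can, with SDs over 20 bins of 0.15 in comr and 0.13 in can. The difference was -0.26 ± 0.04 (standard error over 20 bins), and 19 of 20 bins were lower in comr, against 48.8% of all bins on 3R. The rest of the arm averaged 0.04 in comr and 0.03 in can. The end of 3R thus stood 0.22 above the rest of its arm in can and 0.05 below it in comr. In can 3 of the 55 other 500 kb stretches of 3R scored higher than the end, and in comr 33 did. Its inward neighbours scored above it in both mutants. From 500 to 1000 kb the means were 0.26 in comr and 0.34 in can, and from 1000 to 1500 kb 0.36 in comr and 0.31 in can. Of the 55 other 500 kb stretches of 3R, none had a lower difference, and the nearest, 26500 to 27000 kb from the arm end, had -0.12. In can 19 of 20 end bins lay above the median bin of the arm (0.02), and in comr 8 did, where 50% of bins lie above it by definition.

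The difference on 3R was widest in the outermost 50 kb. The bin at 0 to 25 kb (3R, 27880000 to 27904999) had a mean of -0.25 ± 0.17 in comr and 0.46 ± 0.16 in can (standard error over 18 windows). The next bin, at 25 to 50 kb, had -0.32 ± 0.09 in comr and 0.35 ± 0.09 in can (standard error over 25 windows). Their differences, -0.71 ± 0.22 and -0.67 ± 0.13, were the lowest of the 1115 bins of 3R. In can, 26 of the 1114 other bins of 3R scored above the outermost bin, while in comr 951 did. At 50 to 75 kb the difference was -0.32 ± 0.17, and at 75 to 100 kb it was -0.22 ± 0.16.

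Within these 50 kb, scores of the 43 windows ran from -1.33 to 1.73 in comr, with a median of -0.25, and from -0.77 to 2.40 in can, with a median of 0.45. The ranges overlapped, but 37 of the 43 windows were lower in comr, 32 were below 0 in comr and 32 were above 0 in can. On the rest of 3R 48.7% of windows were lower in comr, and 52.5% were above 0 in comr and 51.9% in can. The widest single gap, of -3.73, lay 22 to 23 kb from the end, where comr had -1.33 and can 2.40. Without that window the outermost 50 kb differed by -0.61 and the outermost 25 kb by -0.53. From 17 to 34 kb (3R, 27871050 to 27888049), 17 neighbouring windows in a row were lower in comr, with means of -0.56 in comr and 0.38 in can. No run of windows lower in comr was longer on 3R.

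**Figure D2:**
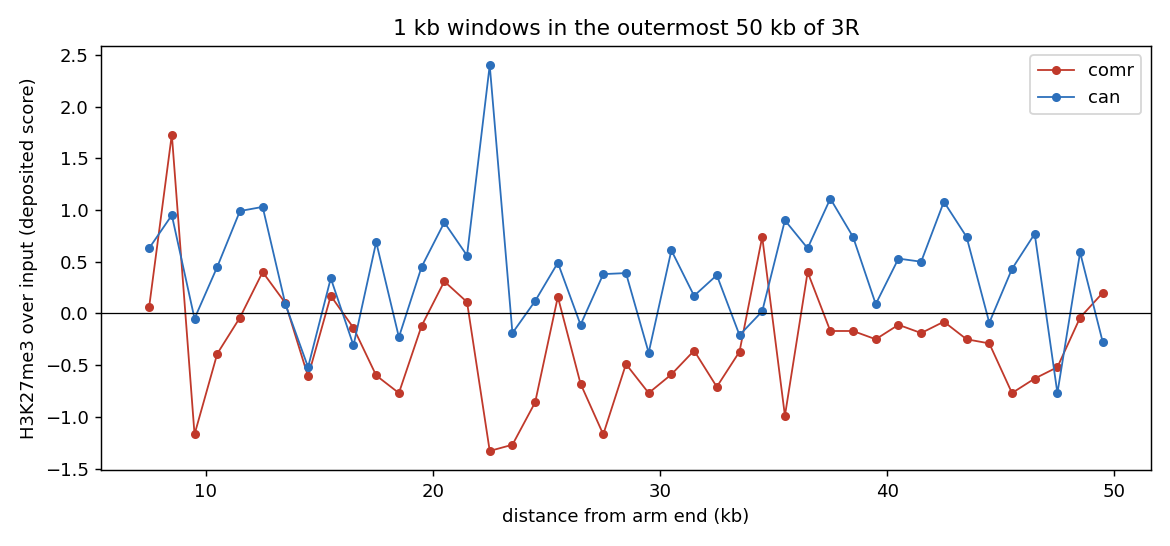
H3K27me3 scores of single 1 kb windows in comr (red) and can (blue) against distance from the end of 3R in kb, over the outermost 50 kb. The can windows are mostly above 0 (32 of 43) and the comr windows mostly below 0 (32 of 43), with single windows that cross. On the rest of 3R 52.5% of windows were above 0 in comr and 51.9% in can.

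Further in, the 3R end remained lower in comr with a smaller gap. The only bin higher in comr was at 125 to 150 kb, with 0.05 ± 0.10 in comr and 0.00 ± 0.09 in can. Large deficits returned at 225 to 250 kb, with -0.01 in comr and 0.43 in can, and at 325 to 350 kb, with -0.03 in comr and 0.47 in can. The bin highest by the mean of both profiles, at 425 to 450 kb, differed by less than its standard error, with 0.31 ± 0.10 in comr and 0.35 ± 0.08 in can. Between 500 and 1000 kb from the end, outside the stretch described, the means were 0.26 in comr and 0.34 in can. The bins on either side of the 500 kb limit were alike in their difference, with -0.23 just inside and -0.24 just outside.

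Across the 20 bins of the 3R end the scores of comr and can correlated at r = 0.05 (Spearman's rho = 0.17), against 0.77 across the other 1095 bins of the arm. With other settings for this end r ran from 0.00 with 50 kb bins to 0.22 by medians of windows. The bins of the end also spanned a narrower range. Their SDs were 0.15 in comr and 0.13 in can, against 0.27 in comr and 0.20 in can over the other bins. Whether this range accounts for the low r was not tested. All 55 other 500 kb stretches of 3R had a higher correlation between bins, with a median of 0.68. Bins of 1 profile share libraries and are not replicates, so these coefficients are descriptions. The other ends had r = 0.77 on 2L (20 bins), 0.86 on 3L (19 bins) and 0.50 on X (9 bins). Over the outermost 250 kb alone r was 0.41 on 2L (10 bins), 0.10 on 3L (9 bins) and -0.28 on 3R (10 bins).

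**Figure D3:**
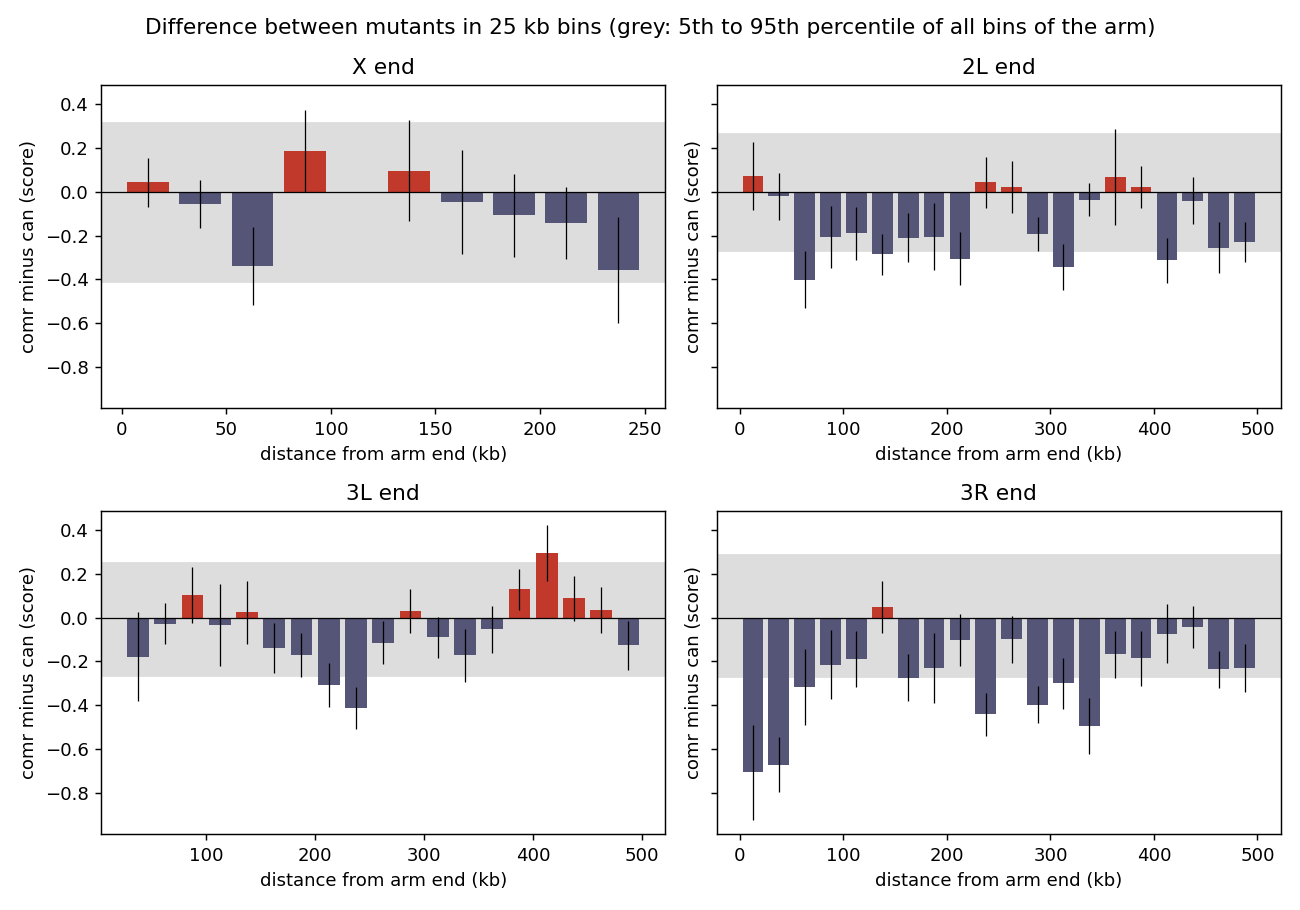
Difference in H3K27me3 score, comr minus can, per 25 kb bin against distance from the arm end in kb, with standard errors over windows; the grey band spans the 5th to 95th percentile of all bins of the arm. Bins below the band number 8 of 20 on 3R, 5 of 20 on 2L, 2 of 19 on 3L and 0 of 9 on X.

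On 2L the end was likewise lower in comr, but not in its outermost 50 kb. It had a mean score of -0.13 in comr and 0.03 in can, with SDs over 20 bins of 0.24 in comr and 0.19 in can. The difference was -0.16 ± 0.03 (standard error over 20 bins), and 15 of 20 bins were lower in comr, against 47.1% of all bins on 2L. None of the 45 other 500 kb stretches of 2L had a lower mean difference, and the nearest had -0.10. By the median of windows 1 of the 45 was lower. The outermost bin, at 0 to 25 kb, had -0.08 ± 0.12 in comr and -0.16 ± 0.15 in can, and the next had -0.09 in comr and -0.07 in can. The largest deficit followed at 50 to 75 kb, with -0.43 ± 0.08 in comr and -0.03 ± 0.11 in can, a difference lower than in all but 6 of the 901 other bins of 2L.

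In both mutants the outer part of the 2L end scored below its inner part. Over the outermost 250 kb the mean was -0.27 in comr and -0.09 in can, and from 250 to 500 kb it was 0.01 in comr and 0.15 in can. The lowest bin of both, at 150 to 175 kb, had -0.48 ± 0.09 in comr and -0.27 ± 0.09 in can. The highest, at 375 to 400 kb (2L, 375000 to 399999), had 0.45 ± 0.09 in comr and 0.43 ± 0.09 in can, and the bin before it had 0.36 in comr and 0.29 in can. From 500 to 1000 kb the means were 0.40 in comr and 0.34 in can there, with comr the higher. The bin just inside the limit had 0.00 in comr and 0.23 in can, and the bin just outside had 0.38 in comr and 0.18 in can.

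The 3L end held the 25 kb bin with the highest score of the 4 ends in each mutant, although in can its mean was below that of the 3R end. It had a mean score of 0.03 in comr and 0.09 in can, with SDs over 19 bins of 0.30 in comr and 0.20 in can. Neighbouring bins from 350 to 425 kb stood out. The bin at 350 to 375 kb had 0.41 ± 0.11 in comr and 0.46 ± 0.09 in can. The bin at 375 to 400 kb (3L, 375000 to 399999) had 0.66 ± 0.09 in comr and 0.53 ± 0.10 in can, and 6 of the 975 other bins of 3L were higher in comr and 5 in can. The bin at 400 to 425 kb had 0.73 ± 0.07 in comr and 0.44 ± 0.09 in can, the largest excess in comr of the 4 ends at 0.29 ± 0.13 (standard error over 19 windows).

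The 3L end resembled the other autosomal ends in direction when taken whole, with a wider gap over its outermost 250 kb. The difference over the whole end was -0.06 ± 0.04 (standard error over 19 bins), with 12 of 19 bins lower in comr, against 49.8% of all bins on 3L. Over the outermost 250 kb it was -0.13, with means of -0.12 in comr and 0.01 in can, and from 250 to 500 kb it was -0.01. The deficit was widest at 200 to 250 kb. The bin at 225 to 250 kb had -0.30 ± 0.08 in comr and 0.11 ± 0.08 in can, and its difference of -0.41 ± 0.10 was lower than in all but 3 of the 975 other bins. There 12 neighbouring windows, from 225 to 237 kb, were all lower in comr, with means of -0.44 in comr and 0.17 in can. The longest such run on the whole of 3L was 21 windows. In the outermost 100 kb of 3L the mutants had the same mean, -0.02. Of the 48 other 500 kb stretches of 3L, 8 had a lower difference. The bin at 475 to 500 kb had -0.14 in comr and -0.02 in can, and the bin just outside had -0.13 in comr and -0.06 in can.

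The X end had low H3K27me3 scores in both mutants, on a chromosome whose mean score was above 0 in both. It had a mean score of -0.25 in comr and -0.16 in can, with SDs over 9 bins of 0.08 in comr and 0.21 in can. The rest of X averaged 0.08 in comr and 0.13 in can. The end thus stood 0.32 below the rest in comr and 0.29 below it in can, and of the 88 other 250 kb stretches of X only 2 were lower in each mutant. All 9 bins lay below the median bin of X in comr (0.07), and 8 of 9 did in can (0.12). The lowest bin, at 125 to 150 kb, had -0.36 ± 0.23 in comr and -0.46 ± 0.16 in can (standard error over 13 windows). From 250 to 500 kb the means were 0.18 in comr and 0.22 in can, and from 1000 to 1500 kb they were 0.47 in both.

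Between the mutants the X end differed less clearly than the ends of 2L and 3R. The difference was -0.09 ± 0.06 (standard error over 9 bins), and 6 of 9 bins were lower in comr, against 59.7% of all bins on X. The rest of X also differed, by -0.05, and 50.5% of windows of the X end were lower in comr, against 52.1% on the rest of X. Of the 88 other stretches, 28 had a lower difference. With rows starting at each kb the difference was -0.05, and 50 of the 88 other stretches had a lower one. The outermost bin, at 0 to 25 kb, had -0.18 ± 0.10 in comr and -0.22 ± 0.09 in can. The largest deficit in comr, -0.36 ± 0.24, was in the bin at 225 to 250 kb, with -0.23 in comr and 0.13 in can. The bin just outside the limit had 0.01 in comr and 0.04 in can. The largest excess in comr was 0.19 ± 0.19, at 75 to 100 kb, with -0.30 in comr and -0.49 in can. Scatter between adjacent windows of the X end had an SD of 0.67 in comr and 0.64 in can, against 0.41 to 0.43 in comr and 0.42 to 0.46 in can at the autosomal ends. The rest of X had a like scatter, with 0.64 in comr and 0.65 in can.

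**Figure D4:**
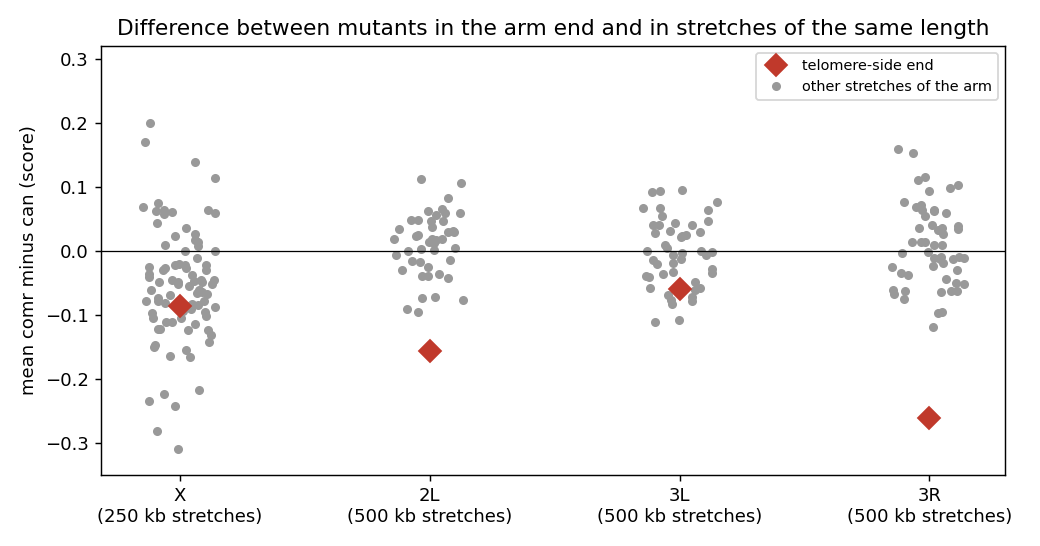
Mean difference in H3K27me3 score, comr minus can, of each telomere-side end (red diamonds) and of the other stretches of the same length on its arm (grey points, spread sideways for display). The ends of 2L (-0.16) and 3R (-0.26) lie below every other stretch of their arms, while those of X and 3L lie among them.

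Centromere-side stretches of the same length on 2L and 3L differed little between mutants and were not lower in comr on average. On 2L 8 of 19 centromere-side bins were lower in comr, and on 3L 9 of 21 were. The telomere-side difference of 3L was itself small, at -0.06 ± 0.04. The last 500 kb of 2L with rows averaged -0.17 in comr and -0.20 in can, and those of 3L averaged -0.07 in comr and -0.09 in can, a difference of 0.03 on 2L and of 0.02 on 3L. On 3R the centromere-side 500 kb was lower in comr too, with -0.29 in comr and -0.17 in can, and 17 of its 20 bins were lower in comr. On X the last 250 kb had 0.03 in comr and 0.05 in can. In score, the telomere-side ends of the 3 autosomal arms lay above the centromere-side ones in both mutants, and that of X lay below.

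Strongly enriched windows were counted as those in the top 10% of the main sequences, at a score of at least 0.71 in comr and 0.72 in can. In the 4 ends together they made up 7.03% of windows in comr (111 of 1578, 95% Wilson interval 5.87 to 8.40) and 10.3% in can (163 of 1578, 8.92 to 11.9). The background over the main sequences was 10.3% in comr and 10.1% in can, with ties in the rounded scores. The share of can was therefore near the background and that of comr below it. These intervals cover only counting error and take windows as independent.

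The shares differed between arms. At the 3R end 6.14% of windows were enriched in comr (29 of 472) and 16.1% in can (76 of 472), against 9.75% in comr and 8.60% in can on the whole arm. At the 2L end the shares were 4.61% in comr (22 of 477) and 5.87% in can (28 of 477), against 8.95% in comr and 8.11% in can on the whole arm. The 3L end taken as a whole was above its arm in both mutants. Its shares were 12.1% in comr (54 of 445) and 10.6% in can (47 of 445), against 8.22% in comr and 7.74% in can. Many of these windows lay in its peak, in the bins at 350 to 375, 375 to 400 and 400 to 425 kb. Those bins held 5, 15 and 11 of them in comr and 6, 8 and 3 in can, so an excess along the whole end is not shown. At the X end only 3.26% were enriched in comr (6 of 184) and 6.52% in can (12 of 184), against 16.5% in comr and 18.7% in can on the whole of X.

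**Figure D5:**
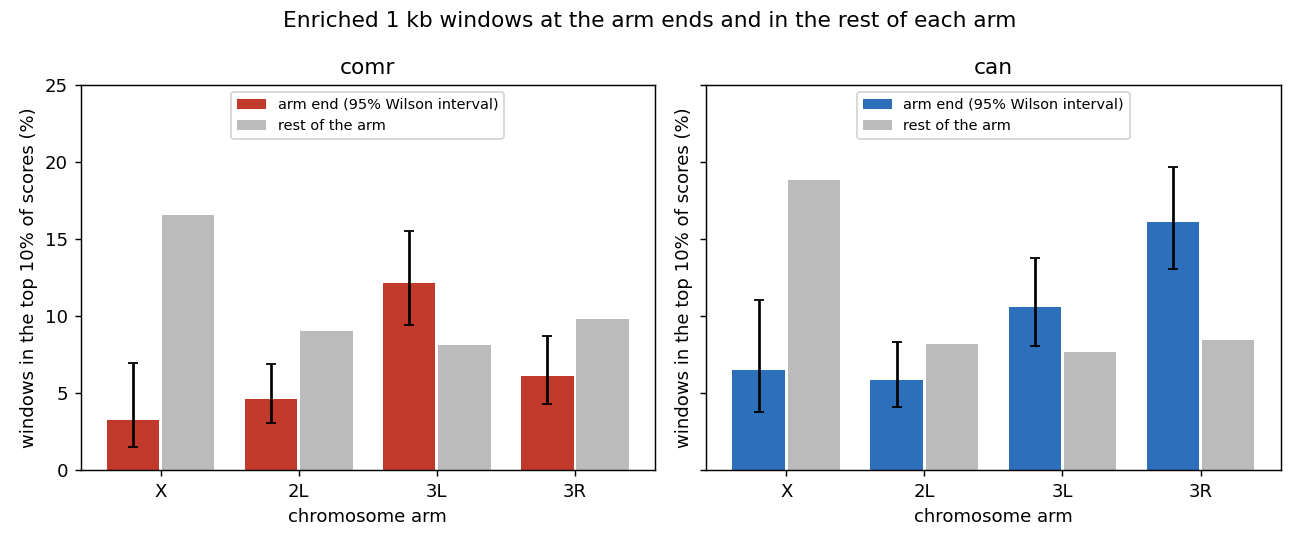
Percent of 1 kb windows in the top 10% of scores in comr (left) and can (right), at the arm ends (coloured bars, 95% Wilson intervals) and in the rest of each arm (grey bars). The 3R end is at 6.14% in comr and 16.1% in can, and the X end is far below the rest of X in both.

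Windows enriched in both mutants were few. They numbered 26 of 1578 (1.65%), against 2.51% on the main sequences, and 14 of the 26 lay on 3L. The longest run of them was 3 windows, on 3L from 367050 to 370049, with means of 1.18 in comr and 1.04 in can. It lay in the peak described above. On 2L, 3R and X no 2 neighbouring windows were enriched in both. At the 3R end, 76 windows were enriched in can and 7 of these also in comr. On the rest of 3R, 2258 windows were enriched in can and 599 of these also in comr. In comr 29 windows were enriched at the 3R end and 2617 on the rest of the arm.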

How the data were processed

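H3K27me3 ChIP-seq of adult testes comprised 8 samples in 4 groups of 2 replicates (H3K27me3 and input in comr, H3K27me3 and input in can). The authors deposited 1 score per position and genotype, H3K27me3 over input per 1000 bp bin and then a step called QN, per the file headers. Positions are those of dm3, per the submitters' processing notes. No source used here states how reads were aligned and filtered, the scale of the score or how replicates were pooled. Sorted scores of the 2 profiles were identical. Both profiles had 1263776 rows 100 bp apart, and the windows were the rows with a start 500 bp past a full kb, each centred on its row. Distances were counted from position 0 on X, 2L and 3L and back from 27905000 on 3R. Means were taken in 25 kb bins with at least 10 windows. Named bins were the outermost, the highest and lowest by the mean of both profiles and those with the largest difference in each direction; further bins were chosen after their values were seen. Enriched windows were the top 10% on 6 main sequences. Positions, lists and measures were chosen with earlier results of these data known. The binning was tested on simulated data. Python 3.11.15, numpy 2.4.6, pandas 2.3.3, scipy 1.17.1 and matplotlib 3.10.9 were used. Depth is unknown. No genome of the build was used, so no sequence is shown.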

Additional observations from a re-analysis of the deposited data

How the results depend on the processing

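No paired analysis was possible because each genotype has 1 profile in which its 2 replicates were pooled, and no replicate could be left out. Errors came from bins and windows of 1 profile, and unknown depth limits each value. A mean counted as moved where it left its 95% interval over bins, a share where it left its Wilson interval, and a count where it changed over 1.5 times. A change of sign was counted only for a mean or correlation whose 95% interval in the main analysis left out 0. Of 310 recomputed values, 251 did not move, 56 moved and 3 changed sign by that rule. Other values also crossed 0 but were not counted so. For example, the 2L score in can was 0.03 in the main analysis and -0.10 over the outermost 100 kb. The alternatives for bins lower in comr and for ranks of stretches were chosen after seeing the data. The difference between mutants did not move in 25 of 26 recomputations, although on X and 3L its interval reached 0, settings for X ran from -0.10 to -0.03, and the outermost 100 kb of 3L gave 0.0017. Of 52 bins lower in comr among 68, settings gave 68.7 to 81.8% of bins. The cause of the changes below was not tested, beyond that shorter stretches hold fewer and other windows.

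With the outermost 100 kb only, the 3R difference was -0.49, and the 3R score in comr was -0.21, or -0.24 against the rest of the arm. The 2L score was -0.25 in comr and -0.10 in can, or -0.25 in comr and -0.0908 in can against the rest. The 3L score in can changed sign, to -0.0217, and to -0.0049 against the rest of the arm. The bin correlation over all ends changed sign, to -0.0083 from 0.66 (15 bins). No bin (0%) was above the arm's median on 2L in either mutant, on 3R in comr or on X in can. Enriched windows came to 2.20% on 2L, 5% on 3L and 3.61% on 3R in comr, and to 2.44% on X in can.

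With the outermost 250 kb, the 2L score was -0.27 in comr and -0.0933 in can (against the rest, -0.27 in comr and -0.0856 in can), and the 3L score in comr was -0.12 (against the rest, -0.10). On 2L 0% of bins in comr and 30.0% in can were above the arm's median. Bin correlations were 0.41 on 2L, 0.10 on 3L and 0.45 over all ends. Without the lowest and highest 1% of windows, the X score in comr was -0.18, or -0.24 against the rest. On X, 0% of can bins were above the median bin under that setting, with rows starting at each kb, with medians and with 50 kb bins. With 10 kb bins 5% of comr bins were above it on X, and with 50 kb bins 10% were on 2L.

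Enriched shares at other cutoffs are to be read against that cutoff, not against the shares at the top 10%. At the top 5% of windows, enriched shares in comr were 2.73% on 2L, 5.62% on 3L and 2.54% on 3R, and in can 3.35%, 3.82% and 6.78%. At the top 20% they were 9.78% on X, 10.9% on 2L, 20.9% on 3L and 13.8% on 3R in comr, and 15.8%, 15.3%, 24.5% and 31.6% in can. With thresholds within each arm, the 3L share in can was 15.3%. The number of other stretches with a lower difference than the X end was 50 of 88 with rows starting at each kb, 47 of 88 by medians and 131 of 221 in stretches of 100 kb. For 2L it was 1 of 45 by medians and 1 of 90 in stretches of 250 kb, and for 3L it was 4 of 48 and 3 of 97. For 3R it was 0 under each of these settings.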

Other observations

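The telomere-side end of 2R, which is not among the 4 ends described, had high H3K27me3 in both mutants and was also lower in comr. Its last 500 kb with rows averaged 0.23 in comr and 0.40 in can, a difference of -0.16 over 484 windows. In 16 of its 20 bins the score was lower in comr, and none of the 41 other 500 kb stretches of 2R had a lower difference.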
